A study of Homo sapiens with 12 samples.

Results

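The genes described here are 43 genes of the hypoxia response and of glycolysis, chosen by name, and their RNA was followed in human 231BR breast cancer cells across 4 treatment groups. Of the 43, 38 had a probe set that names exactly 1 gene, out of 17958 genes compared. ANKRD37 (a HIF target with ankyrin repeats), PGAM1 (phosphoglycerate mutase), SLC16A1 and SLC16A3 (lactate transporters) and CA9 (a carbonic anhydrase) had none and were not analysed here. 231BR cells were derived from the human breast cancer line MDA-MB-231 and home to the brain, and they carried EGFP so that they could be sorted. The groups were estradiol with astrocytes (10 nM estradiol and mouse astrocytes for 24 h), vehicle with astrocytes (the same co-culture without the hormone), estradiol alone (10 nM, no astrocytes) and vehicle alone. Each group had 3 arrays, 12 in all. All arrays hold RNA of 1 tumour cell line. Nothing in the labels tells if the replicates came from different cultures, and the p-values then cover only the spread between these arrays, part of which can be technical. By its title, the series is about an estrogen effect on these cells that passes through estrogen receptor positive astrocytes.

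Cells sense oxygen through prolyl hydroxylases, which mark the alpha subunits of hypoxia-inducible factor (HIF) for destruction while oxygen is present. When oxygen falls, the alpha subunit lasts, pairs with ARNT and switches on genes for vessel growth, for collagen modification and for nearly every step that turns glucose into lactate. HIF is controlled mainly through the life of its protein, so the RNA of its subunits is not a measure of its activity. Tumour cells often run glycolysis at a high rate even with oxygen, and astrocytes and tumour cells in the brain exchange glucose and lactate.

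HIF binds DNA at the short core sequences ACGTG and GCGTG, which were searched on both strands in the 250 bases before each annotated start of a gene. The windows came from RefSeq, build GRCh38.p14, and 37 of the 43 genes had 1 or more, 65 windows in all. ACGTG stood in 36.9% of these windows, against 18.5% of all 35116 windows of that length, and GCGTG stood in 33.8%, against 32.2%. An upstream window of 3 genes that fell with astrocytes (HK2, KDM3A and PLOD2) and of 3 that did not pass the test (LDHA, PGK1 and ALDOA) is shown so that their HIF cores can be compared. HK2, KDM3A and LDHA have 2 windows and ALDOA has 3, and the one farthest upstream is printed; for KDM3A both windows lie inside the gene's full annotated span. Each sequence runs 5′ to 3′ on the strand of the gene and ends 1 base before the start, and capitals mark ACGTG or GCGTG or their reverse complements CACGT and CACGC. The run CACGTG holds ACGTG on both strands.
HK2: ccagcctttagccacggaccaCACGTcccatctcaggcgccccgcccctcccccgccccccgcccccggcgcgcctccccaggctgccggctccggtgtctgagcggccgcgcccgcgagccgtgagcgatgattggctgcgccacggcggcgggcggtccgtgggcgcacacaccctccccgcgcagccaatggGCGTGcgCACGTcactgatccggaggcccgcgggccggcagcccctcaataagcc
KDM3A: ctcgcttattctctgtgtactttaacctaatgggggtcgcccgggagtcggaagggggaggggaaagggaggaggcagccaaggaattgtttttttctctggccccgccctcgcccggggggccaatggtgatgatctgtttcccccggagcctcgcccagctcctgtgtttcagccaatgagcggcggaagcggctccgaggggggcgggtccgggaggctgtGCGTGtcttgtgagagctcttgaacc
PLOD2: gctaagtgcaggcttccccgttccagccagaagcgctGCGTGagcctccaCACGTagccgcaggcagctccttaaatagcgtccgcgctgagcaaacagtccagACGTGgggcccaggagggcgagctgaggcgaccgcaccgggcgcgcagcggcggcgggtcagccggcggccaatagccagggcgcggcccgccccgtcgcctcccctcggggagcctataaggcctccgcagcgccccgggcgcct
LDHA: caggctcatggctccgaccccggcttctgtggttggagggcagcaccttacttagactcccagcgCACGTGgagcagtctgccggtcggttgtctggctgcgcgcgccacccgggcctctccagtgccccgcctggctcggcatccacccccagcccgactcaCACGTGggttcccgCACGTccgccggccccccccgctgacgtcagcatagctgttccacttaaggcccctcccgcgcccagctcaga
PGK1: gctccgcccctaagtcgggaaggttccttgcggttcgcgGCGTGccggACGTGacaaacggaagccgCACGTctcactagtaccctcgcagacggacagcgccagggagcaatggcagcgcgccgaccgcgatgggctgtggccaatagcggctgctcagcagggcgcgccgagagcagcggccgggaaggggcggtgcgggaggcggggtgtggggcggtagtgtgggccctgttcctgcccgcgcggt
ALDOA: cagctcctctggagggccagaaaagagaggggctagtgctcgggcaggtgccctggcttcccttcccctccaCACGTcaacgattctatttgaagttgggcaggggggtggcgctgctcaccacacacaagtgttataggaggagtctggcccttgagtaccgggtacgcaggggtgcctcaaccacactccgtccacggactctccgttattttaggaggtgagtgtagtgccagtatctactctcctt
The positions are chr2:74833877-74834126 (plus strand) for HK2, chr2:86441121-86441370 (plus strand) for KDM3A, chr3:146161185-146161434 (minus strand) for PLOD2, chr11:18394313-18394562 (plus strand) for LDHA, chrX:78103998-78104247 (plus strand) for PGK1 and chr16:30064029-30064278 (plus strand) for ALDOA. By these letters the windows of genes that did not pass hold the cores as well. Among 18 measured genes with ACGTG in a window, 6 were called lower with astrocytes and the median difference was −0.49, and among 15 measured genes with a window but no ACGTG, 6 were called lower and the median was −0.51. A match is a description of the letters and not a binding site.

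The arrays with astrocytes differed from the others in ways that touch every result below. Across probe sets, the log2 values of an array had an SD between 1.62 and 2.10 with astrocytes and between 2.04 and 2.22 without. With all genes in 4 equal classes by mean signal, the median difference between arrays with and without astrocytes was −0.58 in the highest class and 0.41 in the lowest. Of the 38 genes described here, 30 lay in the highest class, and their median there was −0.57. The other 8 lay in the class just below, with a median of −0.63, against −0.34 for all genes of that class. Replicate 2 of estradiol with astrocytes stood apart, with the lowest SD, and 31 of the 38 genes had their lowest value of all 12 arrays on it. On that array the median of the 38 genes lay 1.59 below the mean of the 6 arrays without astrocytes. On replicate 2 of vehicle with astrocytes it lay 0.62 below, and on the other 4 arrays with astrocytes between 0.08 and 0.34 below. Where a gene of the 38 was called lower over all arrays with astrocytes, its value with the array SD as a covariate is given below. Its value without replicate 2 of both astrocyte groups is given where that changed the call or moved the difference by over 1.5 times. No such values are given for genes of the other lists. The array SD is computed from the same values and was mostly lower with astrocytes. A fit with it as a covariate therefore cannot tell a difference that goes with co-culture from one that goes with the SD.

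Markers of the line were at high signal. All 8 markers of MDA-MB-231 lay at or above percentile 95.6 of genes by level, and ESR1, the gene of estrogen receptor alpha, lay at percentile 25.6. The genes listed as low in that line, ESR1 among them, ran from percentile 8.1 (PGR) to 75.7 (FOXA1). Of 15 measured astrocyte markers, 7 rose and 2 fell with astrocytes in the mean of both comparisons, and none is at 0, since array signals have no true zero. The sum of their log2 signals ran from 75.8 to 77.8 in estradiol with astrocytes and from 75.0 to 76.5 in vehicle with astrocytes, against 71.5 to 74.4 in estradiol alone and 71.8 to 75.4 in vehicle alone. GFAP, the defining filament gene of astrocytes, averaged 5.92 with astrocytes and 4.98 alone, while SLC1A3, an astrocyte glutamate transporter gene, averaged 5.56 with astrocytes and 6.51 alone. With astrocytes 5 of 11 microglia markers, 4 of 7 neuron markers and 5 of 7 oligodendrocyte markers rose, 1 neuron marker fell, and 0 of 8 fibroblast and endothelial markers passed. Over all genes 24.5% were called higher, and among the 2 lower of the 4 classes by signal 37.7% and 37.6%. Of the 8 markers of MDA-MB-231, 3 fell (VIM, CD44 and EGFR), and of 6 genes listed as low in that line 1 rose (ESR1). The cells were sorted on EGFP, and the part of mouse RNA in any result was not tested. RNA came from sorted cells in bulk, so fewer cells with a transcript and less of it per cell cannot be told apart.

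With astrocyte co-culture 16 of the 38 genes fell and 0 rose when the 6 arrays with astrocytes were set against the 6 without (limma, adjusted p under 0.05 over all genes). All 3 HIF subunit genes fell, with the HIF target genes STC1, VEGFA and KDM3A, the glucose transporter gene SLC2A3 and the glycolysis genes HK2, PFKM, PFKFB4 and ENO2. The genes for the bulk enzymes of lower glycolysis, GAPDH, ENO1, PKM and PGK1, did not pass, nor did LDHA. The 16 are 42.1% of the 38, against 23% of all genes called lower (24.5% higher, 47.5% in either direction). Of the genes above the median level, where all of the 38 lie, 37.5% were called lower. That share is near theirs, so the count of 16 is not a result about the 38 as a set. The median difference of the 38 was −0.62 on the log2 scale, against 0.07 over all genes and −0.48 over genes above the median level. With the array SD as a covariate the median of the 38 was 0.13. Groups did not overlap, 6 arrays against 6, for 8 of the 38, all lower with astrocytes, against 11.3% of all genes lower and 12.2% higher.

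**Figure D1:**
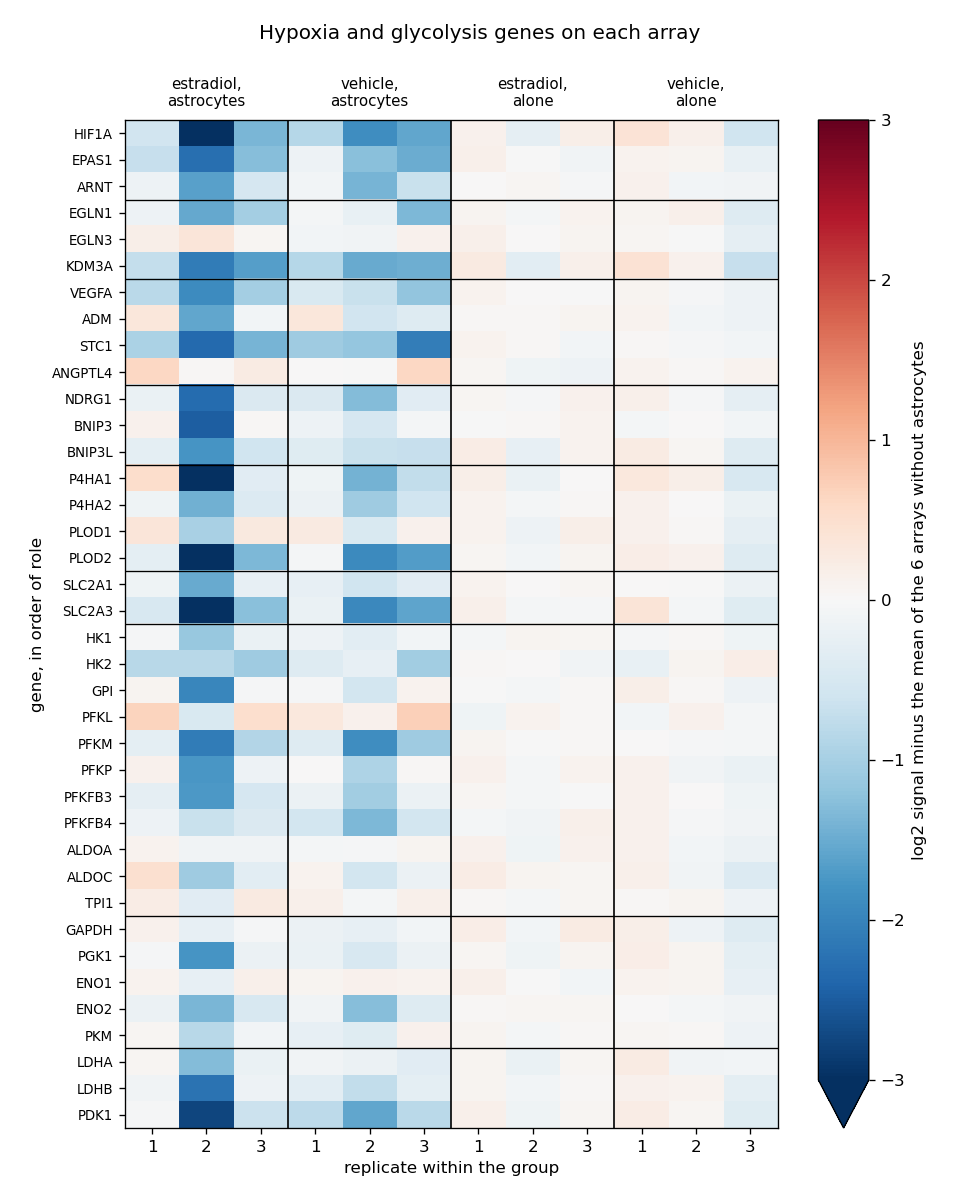
Each cell is the log2 signal of 1 gene on 1 array minus that gene's mean over the 6 arrays without astrocytes, with genes in order of role and arrays in 4 groups of 3; values below −3 take the darkest blue. Replicate 2 of estradiol with astrocytes is blue for most genes, while STC1, KDM3A and HK2 are blue on every array with astrocytes.

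HIF1A and EPAS1 encode the alpha subunits HIF-1α and HIF-2α, and ARNT encodes their shared partner. In the value sentences that follow, the 3 numbers of a group are its replicates 1, 2 and 3, in log2 signal of 1 probe set. The signal of HIF1A was 8.90, 5.93 and 8.09 in estradiol with astrocytes and 8.62, 7.60 and 7.90 in vehicle with astrocytes, against 9.60, 9.20 and 9.63 in estradiol alone and 9.87, 9.62 and 8.87 in vehicle alone. Every array with astrocytes lay below 9.20, the second-lowest array without them, and replicate 1 of estradiol with astrocytes just overlapped the lowest, replicate 3 of vehicle alone. It averaged 7.84 with astrocytes and 9.47 alone, a 3.09-fold fall (difference −1.63, SE 0.43, n = 6 arrays each, adjusted p = 0.0136 in limma). HIF1A was at −1.09 (adjusted p = 0.00891) without replicate 2 of both astrocyte groups, and at −0.21 (adjusted p = 0.373) with the array SD as a covariate, where it did not pass. For EPAS1 the arrays gave 7.02, 5.46 and 6.44 in estradiol with astrocytes and 7.56, 6.46 and 6.22 in vehicle with astrocytes, against 7.87, 7.70 and 7.62 in estradiol alone and 7.81, 7.80 and 7.50 in vehicle alone. Replicate 1 of vehicle with astrocytes reached the arrays without astrocytes, and the other 5 lay below them. EPAS1 fell 2.29-fold, averaging 6.52 with astrocytes and 7.72 alone (difference −1.19, SE 0.28, n = 6 arrays each, adjusted p = 0.00962 in limma). With the array SD as a covariate EPAS1 was at −0.42 (adjusted p = 0.210) and did not pass. ARNT had 7.01, 5.54 and 6.66 in estradiol with astrocytes and 7.09, 5.77 and 6.51 in vehicle with astrocytes, against 7.18, 7.23 and 7.15 in estradiol alone and 7.31, 7.10 and 7.07 in vehicle alone. Replicate 1 of both astrocyte groups sat at the level of the arrays without astrocytes, and replicate 2 of both sat lowest. It averaged 6.43 with astrocytes and 7.17 alone, a 1.67-fold fall (difference −0.74, SE 0.27, n = 6 arrays each, adjusted p = 0.0408 in limma). ARNT did not pass without replicate 2 of both astrocyte groups (−0.35, adjusted p = 0.0596), and lay at 0.04 with the array SD as a covariate.

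Oxygen sensing genes include EGLN1 and EGLN3, prolyl hydroxylases that act on HIF, and KDM3A, a histone demethylase whose gene HIF induces. The signal of KDM3A was 5.87, 4.48 and 4.93 in estradiol with astrocytes and 5.73, 5.08 and 5.11 in vehicle with astrocytes, against 6.85, 6.28 and 6.74 in estradiol alone and 7.02, 6.72 and 5.90 in vehicle alone. No array with astrocytes reached any array without them. KDM3A fell 2.61-fold, averaging 5.20 with astrocytes and 6.59 alone (difference −1.38, SE 0.27, n = 6 arrays each, adjusted p = 0.00527 in limma). It passed with the array SD as a covariate, at −0.63 (adjusted p = 0.0491). For EGLN1 the arrays gave 6.88, 5.48 and 5.99 in estradiol with astrocytes and 6.95, 6.80 and 5.67 in vehicle with astrocytes, against 7.11, 6.97 and 7.12 in estradiol alone and 7.11, 7.17 and 6.64 in vehicle alone. Replicates 2 and 3 of estradiol with astrocytes and replicate 3 of vehicle with astrocytes lay below every array without astrocytes, and the other 3 lay among them. It averaged 6.30 with astrocytes and 7.02 alone, a 1.65-fold fall (difference −0.72, SE 0.27, n = 6 arrays each, adjusted p = 0.0460 in limma). EGLN1 lost the call in 7 of 12 other settings and kept it in only 3 of 12 fits that left out 1 array. It was at −0.65 (adjusted p = 0.0628) without replicate 2 of both astrocyte groups and at −0.18 (adjusted p = 0.716) with the array SD as a covariate. EGLN3 had a difference of 0.09 (adjusted p = 0.563) and did not pass.

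Of the secreted factors, STC1 encodes the hormone stanniocalcin 1 and VEGFA the main growth factor of blood vessels. STC1 had 6.90, 5.51 and 6.44 in estradiol with astrocytes and 6.78, 6.69 and 5.78 in vehicle with astrocytes, against 7.96, 7.88 and 7.76 in estradiol alone and 7.87, 7.82 and 7.77 in vehicle alone. All 6 arrays with astrocytes lay below all 6 without, and the arrays without astrocytes lay close together. STC1 fell 2.82-fold, averaging 6.35 with astrocytes and 7.84 alone (difference −1.49, SE 0.24, n = 6 arrays each, adjusted p = 0.00364 in limma). With the array SD as a covariate STC1 passed at −0.99 (adjusted p = 0.0201). The signal of VEGFA was 7.92, 6.83 and 7.71 in estradiol with astrocytes and 8.27, 8.04 and 7.54 in vehicle with astrocytes, against 8.83, 8.73 and 8.71 in estradiol alone and 8.80, 8.68 and 8.55 in vehicle alone. Again the 6 arrays with astrocytes and the 6 without did not overlap. It averaged 7.72 with astrocytes and 8.72 alone, a 2.0-fold fall (difference −1.0, SE 0.20, n = 6 arrays each, adjusted p = 0.00573 in limma). VEGFA was at −0.53 (adjusted p = 0.0608) with the array SD as a covariate and did not pass. ADM, which encodes the vessel-widening peptide adrenomedullin, had a difference of −0.32 (adjusted p = 0.344), and ANGPTL4, which encodes an inhibitor of lipoprotein lipase, had one of 0.25 (adjusted p = 0.182). Neither passed.

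**Figure D2:**
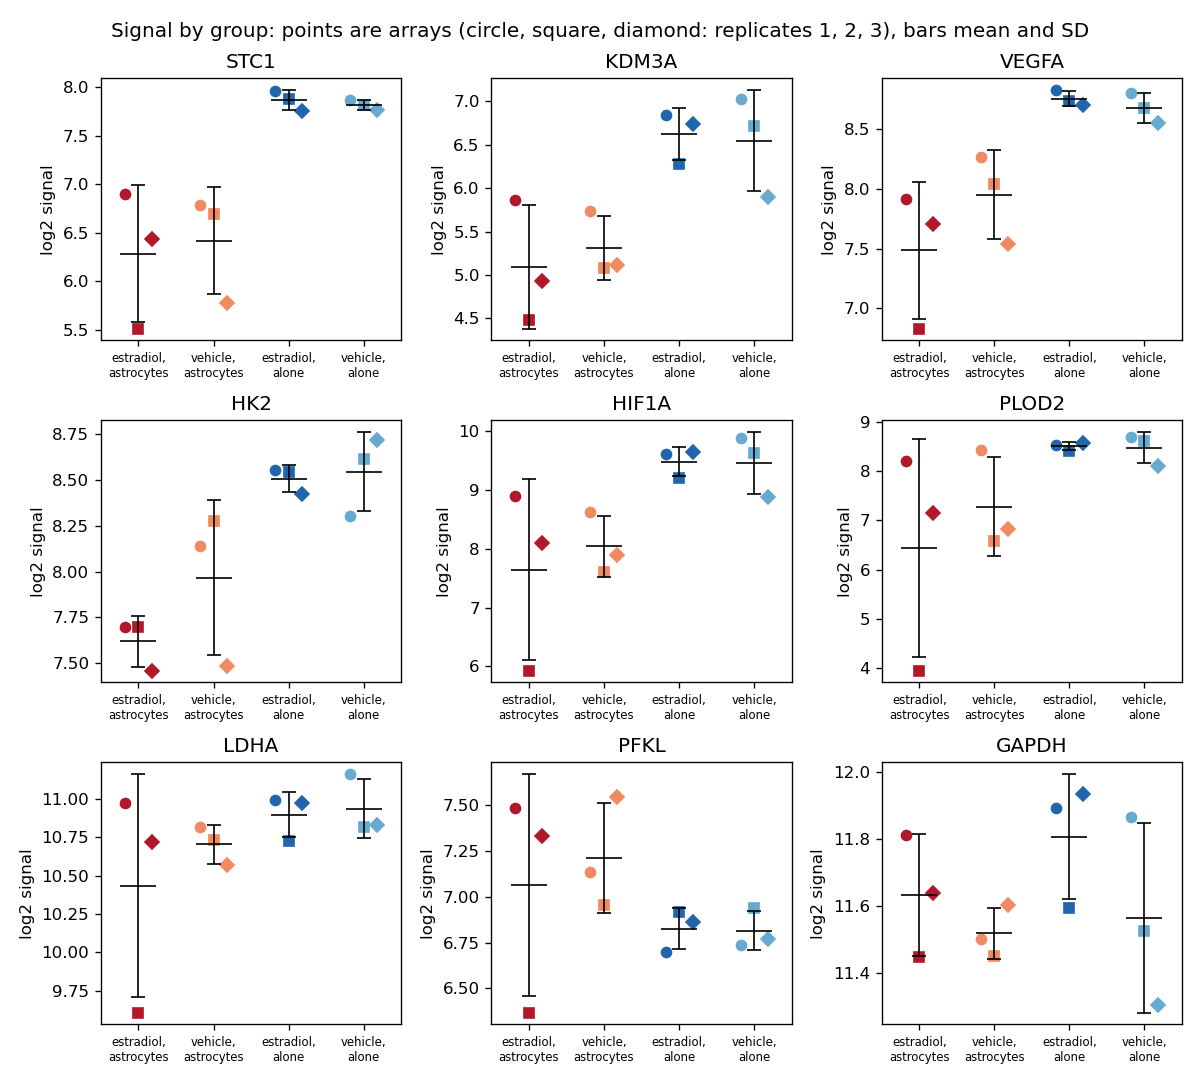
Log2 signal of 9 genes by group, with 1 point for each array (circle, square and diamond for replicates 1, 2 and 3) and bars for mean and SD of 3 arrays; each panel has its own axis, which does not start at 0. STC1, KDM3A, VEGFA and HK2 have no overlap between arrays with and without astrocytes, while in PLOD2 and LDHA replicate 2 of estradiol with astrocytes lies far below the rest.

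BNIP3 and BNIP3L encode receptors for the removal of mitochondria, and NDRG1 a stress protein that hypoxia induces. For BNIP3L the arrays gave 8.81, 7.33 and 8.51 in estradiol with astrocytes and 8.74, 8.44 and 8.42 in vehicle with astrocytes, against 9.33, 8.86 and 9.21 in estradiol alone and 9.35, 9.15 and 8.72 in vehicle alone. Replicate 1 of both astrocyte groups lay above replicate 3 of vehicle alone, and every other array with astrocytes lay below all arrays without. BNIP3L fell 1.65-fold, averaging 8.38 with astrocytes and 9.10 alone (difference −0.73, SE 0.24, n = 6 arrays each, adjusted p = 0.0303 in limma). BNIP3L was at −0.48 (adjusted p = 0.0345) without replicate 2 of both astrocyte groups, and at −0.01 (adjusted p = 0.966) with the array SD as a covariate. NDRG1 (−0.84, adjusted p = 0.0533) and BNIP3 (−0.50, adjusted p = 0.261) did not pass. BNIP3 had 7.40 on replicate 2 of estradiol with astrocytes, while its other 11 values lay between 9.36 and 9.98.

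Hypoxia also induces the enzymes that prepare collagen for secretion, the prolyl hydroxylases P4HA1 and P4HA2 and the lysyl hydroxylases PLOD1 and PLOD2. PLOD2 had 8.20, 3.95 and 7.15 in estradiol with astrocytes and 8.43, 6.58 and 6.82 in vehicle with astrocytes, against 8.54, 8.41 and 8.58 in estradiol alone and 8.69, 8.62 and 8.11 in vehicle alone. The spread with astrocytes was wide, and replicate 1 of both astrocyte groups was near the arrays without astrocytes. It averaged 6.85 with astrocytes and 8.49 alone, a 3.11-fold fall (difference −1.64, SE 0.60, n = 6 arrays each, adjusted p = 0.0422 in limma). Without replicate 2 of both astrocyte groups PLOD2 was at −0.84 (adjusted p = 0.0473), and with the array SD as a covariate it was at 0.31. The signal of P4HA2 was 6.12, 4.82 and 5.83 in estradiol with astrocytes and 6.08, 5.18 and 5.64 in vehicle with astrocytes, against 6.35, 6.19 and 6.28 in estradiol alone and 6.37, 6.27 and 6.04 in vehicle alone. Replicate 1 of both astrocyte groups again lay among the arrays without astrocytes. P4HA2 fell 1.56-fold, averaging 5.61 with astrocytes and 6.25 alone (difference −0.64, SE 0.23, n = 6 arrays each, adjusted p = 0.0388 in limma). P4HA2 kept the call in 5 of 12 fits that left out 1 array. It was at −0.33 (adjusted p = 0.0563) without replicate 2 of both astrocyte groups and at 0.04 (adjusted p = 0.855) with the array SD as a covariate. P4HA1 (−0.87, adjusted p = 0.162) and PLOD1 (−0.06, adjusted p = 0.823) did not pass.

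SLC2A1 and SLC2A3 encode the glucose transporters GLUT1 and GLUT3. For SLC2A3 the arrays gave 5.69, 3.14 and 4.90 in estradiol with astrocytes and 5.97, 4.23 and 4.59 in vehicle with astrocytes, against 6.31, 6.11 and 6.13 in estradiol alone and 6.55, 6.10 and 5.81 in vehicle alone. Replicate 1 of vehicle with astrocytes overlapped the arrays without astrocytes, and the lowest value was again that of replicate 2 of estradiol with astrocytes. It averaged 4.75 with astrocytes and 6.17 alone, a 2.67-fold fall (difference −1.42, SE 0.41, n = 6 arrays each, adjusted p = 0.0187 in limma). Without replicate 2 of both astrocyte groups SLC2A3 was at −0.88 (adjusted p = 0.0261), and with the array SD as a covariate at −0.12 (adjusted p = 0.751). SLC2A1 had a difference of −0.51 (adjusted p = 0.0728) and did not pass.

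In upper glycolysis, HK2 encodes the inducible hexokinase that traps glucose in the cell. HK2 had 7.70, 7.70 and 7.46 in estradiol with astrocytes and 8.14, 8.28 and 7.48 in vehicle with astrocytes, against 8.55, 8.54 and 8.42 in estradiol alone and 8.30, 8.62 and 8.71 in vehicle alone. HK2 had its lowest value on replicate 3 of estradiol with astrocytes, not on replicate 2, and no array with astrocytes overlapped an array without. HK2 fell 1.66-fold, averaging 7.79 with astrocytes and 8.52 alone (difference −0.73, SE 0.16, n = 6 arrays each, adjusted p = 0.00771 in limma). HK2 passed with the array SD as a covariate (−0.84, adjusted p = 0.0147), but not after quantile (−0.22) or cyclic loess (−0.16) normalization. PFKM encodes the muscle form of phosphofructokinase, the main control point of the pathway. The signal of PFKM was 6.49, 4.69 and 5.91 in estradiol with astrocytes and 6.41, 4.94 and 5.73 in vehicle with astrocytes, against 6.87, 6.77 and 6.82 in estradiol alone and 6.80, 6.76 and 6.72 in vehicle alone. All 6 arrays with astrocytes lay below the 6 without, and replicate 2 of both astrocyte groups lay lowest. It averaged 5.69 with astrocytes and 6.79 alone, a 2.14-fold fall (difference −1.10, SE 0.30, n = 6 arrays each, adjusted p = 0.0161 in limma). PFKM was at −0.66 (adjusted p = 0.0113) without replicate 2 of both astrocyte groups, and at −0.19 (adjusted p = 0.541) with the array SD as a covariate. PFKFB4 encodes an enzyme that makes fructose 2,6-bisphosphate, the activator of phosphofructokinase. For PFKFB4 the arrays gave 6.06, 5.55 and 5.78 in estradiol with astrocytes and 5.65, 4.87 and 5.65 in vehicle with astrocytes, against 6.16, 6.11 and 6.37 in estradiol alone and 6.34, 6.19 and 6.11 in vehicle alone. It was lowest on replicate 2 of vehicle with astrocytes. PFKFB4 fell 1.53-fold, averaging 5.60 with astrocytes and 6.21 alone (difference −0.62, SE 0.17, n = 6 arrays each, adjusted p = 0.0164 in limma). With the array SD as a covariate it was at −0.27 (adjusted p = 0.296), and with that and after both normalizations it did not pass.

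Of the other 8 upper glycolysis genes, none passed. PFKFB3, which encodes another maker of the activator, was at −0.64 (adjusted p = 0.0509) with no overlap between arrays with and without astrocytes. PFKP, the platelet phosphofructokinase, was at −0.44, HK1, the hexokinase of most tissues, at −0.32, and GPI, the isomerase after hexokinase, at −0.40. The aldolase genes ALDOA and ALDOC were at −0.02 and −0.26, and the triose isomerase gene TPI1 was at 0.06. PFKL, the liver phosphofructokinase, had the highest difference of the 38 genes, 0.32 (95% interval −0.12 to 0.75). ALDOC is also a marker of astrocytes, and its adjusted p was 0.366.

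Lower glycolysis turns triose phosphate into pyruvate. ENO2 encodes the neuronal form of enolase. ENO2 had 7.0, 5.82 and 6.70 in estradiol with astrocytes and 7.07, 5.91 and 6.80 in vehicle with astrocytes, against 7.21, 7.25 and 7.24 in estradiol alone and 7.19, 7.13 and 7.07 in vehicle alone. The 6 arrays without astrocytes lay close together, and replicate 1 of both astrocyte groups stood just under the lowest of them. It averaged 6.55 with astrocytes and 7.18 alone, a 1.55-fold fall (difference −0.63, SE 0.23, n = 6 arrays each, adjusted p = 0.0444 in limma). ENO2 kept the call in 2 of 12 fits that left out 1 array, and was at −0.29 (adjusted p = 0.0507) without replicate 2 of both astrocyte groups and at 0.01 with the array SD as a covariate. PGK1, phosphoglycerate kinase, makes the first ATP of the pathway. The signal of PGK1 was 10.16, 8.43 and 10.02 in estradiol with astrocytes and 9.99, 9.70 and 10.0 in vehicle with astrocytes, against 10.24, 10.07 and 10.26 in estradiol alone and 10.39, 10.27 and 9.90 in vehicle alone. Apart from replicate 2 of estradiol with astrocytes the groups overlapped. PGK1 averaged 9.72 with astrocytes and 10.19 alone (difference −0.47, SE 0.27, n = 6 arrays each) and did not pass (adjusted p = 0.150 in limma). GAPDH (−0.11, 95% interval −0.42 to 0.20), ENO1, the common enolase (0.06), and PKM, pyruvate kinase (−0.22), did not pass. These genes have processed pseudogenes, which their probes may read as well.

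At the end of the pathway, lactate dehydrogenase (LDHA and LDHB) interconverts pyruvate and lactate, and PDK1 shuts off pyruvate dehydrogenase, which keeps pyruvate from being burned. For PDK1 the arrays gave 7.37, 4.65 and 6.76 in estradiol with astrocytes and 6.61, 5.86 and 6.60 in vehicle with astrocytes, against 7.57, 7.27 and 7.46 in estradiol alone and 7.62, 7.47 and 7.05 in vehicle alone. Replicate 1 of estradiol with astrocytes lay among the arrays without astrocytes, and replicate 2 lay far below every one of them. It averaged 6.31 with astrocytes and 7.41 alone, a 2.14-fold fall (difference −1.10, SE 0.38, n = 6 arrays each, adjusted p = 0.0356 in limma). PDK1 was at −0.57 (adjusted p = 0.0176) without replicate 2 of both astrocyte groups and at 0.14 with the array SD as a covariate. LDHB had 10.34, 8.24 and 10.31 in estradiol with astrocytes and 10.15, 9.72 and 10.16 in vehicle with astrocytes, against 10.54, 10.37 and 10.50 in estradiol alone and 10.59, 10.56 and 10.17 in vehicle alone. Replicates 1 and 3 of estradiol with astrocytes lay above replicate 3 of vehicle alone, and the other 4 arrays with astrocytes lay below every array without. LDHB averaged 9.82 with astrocytes and 10.46 alone (difference −0.63, SE 0.32, n = 6 arrays each) and did not pass (adjusted p = 0.112 in limma). LDHA was at −0.35 (95% interval −0.82 to 0.12, adjusted p = 0.183).

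**Figure D3:**
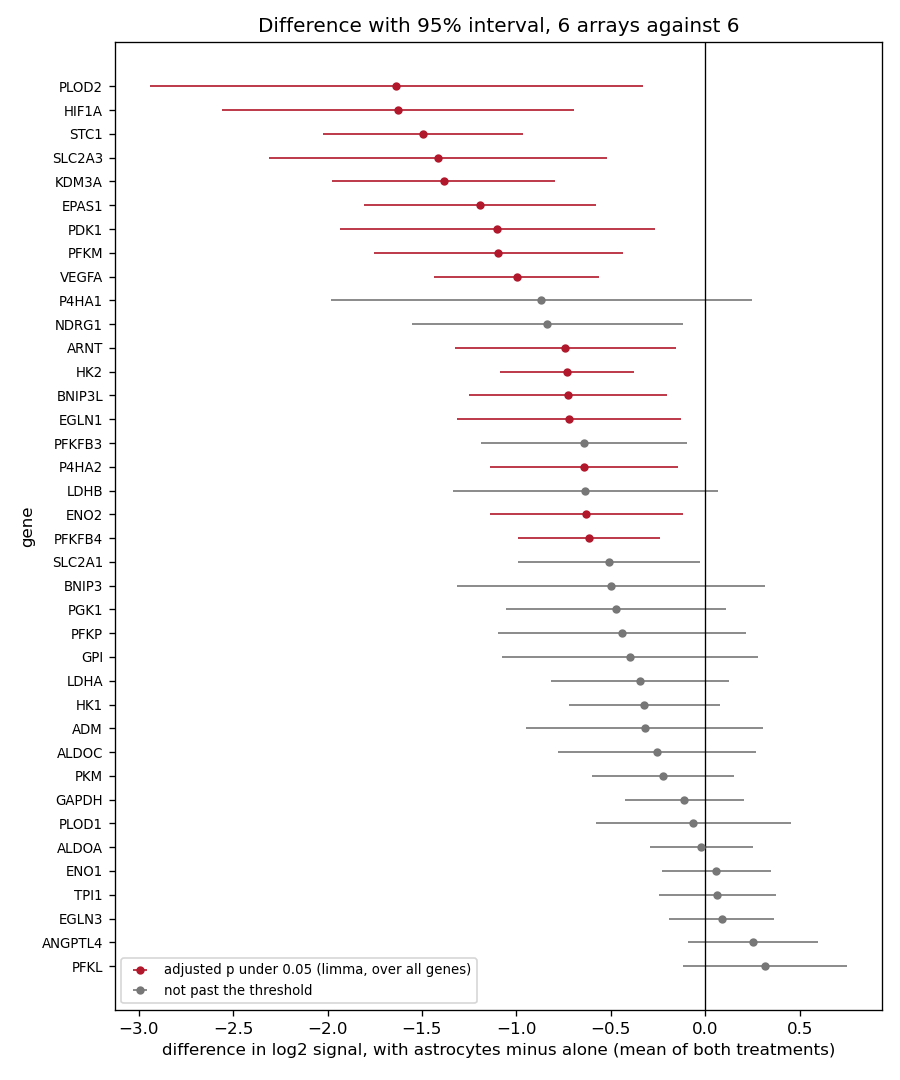
The difference in log2 signal (6 arrays with astrocytes minus 6 without) with its 95% interval from limma for the 38 genes, in red where the adjusted p over all genes was under 0.05. The 16 red genes lie from −0.62 to −1.64, and the grey genes from −0.87 to 0.32.

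**Figure D4:**
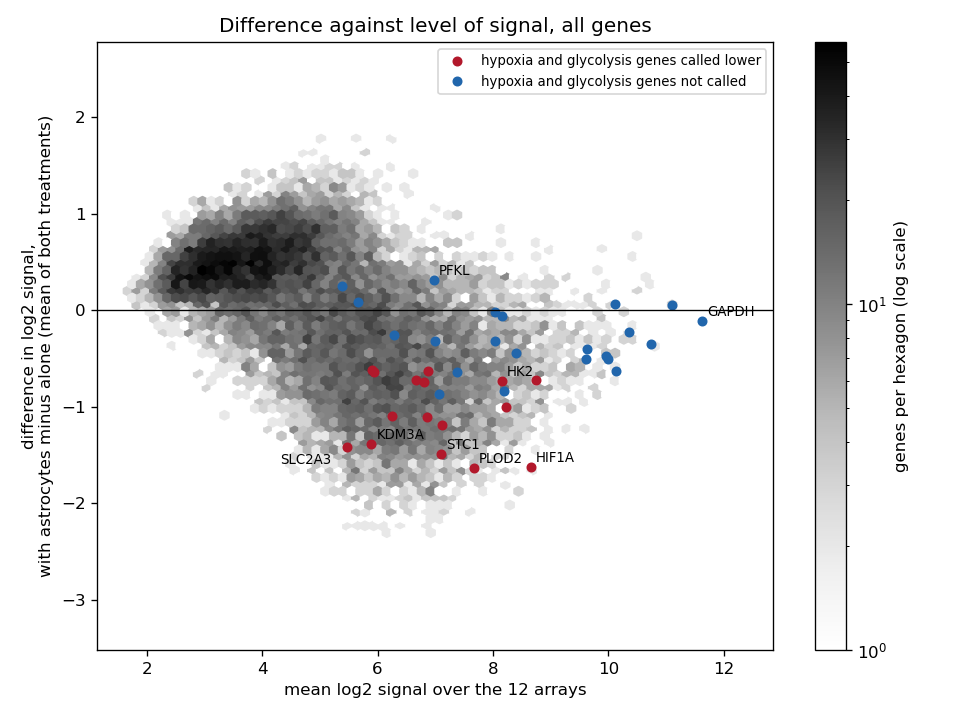
The difference in log2 signal, with astrocytes minus alone, against the mean log2 signal over 12 arrays, for all genes (grey hexagons, darker for more genes on a log scale) and the 38 genes (red called lower, blue not called). Grey lies above 0 at low signal and mostly below 0 from the middle of the range on, where the 38 genes lie.

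Gene by gene, the falls with astrocytes were not equally firm. Without each of the 12 arrays in turn, 8 of the 16 stayed past the threshold every time: HIF1A, EPAS1, KDM3A, VEGFA, STC1, HK2, PFKM and PFKFB4. Leaving out both replicates 2 of the astrocyte groups kept 12 of the 16, and the array SD as a covariate kept 3 (KDM3A, STC1 and HK2). Quantile normalization kept 5 (HIF1A, EPAS1, KDM3A, VEGFA and STC1). Cyclic loess normalization kept 8 (HIF1A, EPAS1, KDM3A, STC1, PLOD2, SLC2A3, PFKM and PDK1). The count of genes called lower was 8 without replicate 1 of vehicle alone or replicate 2 of vehicle with astrocytes. It was 9 without replicate 1 or 3 of estradiol alone, replicate 2 of vehicle alone or replicate 3 of vehicle with astrocytes, 10 without replicate 2 of estradiol alone and 15 without replicate 2 of estradiol with astrocytes. STC1 and KDM3A stayed past the threshold in all 12 of the other settings. Their differences ran from −1.59 to −0.86 for STC1, with an adjusted p of at most 0.0201, and from −1.63 to −0.63 for KDM3A, with an adjusted p of at most 0.0491. PFKL was called higher in 5 of the 12 other settings (quantile and cyclic loess normalization, array weights, the array SD as a covariate and without both replicates 2), at 0.56 (adjusted p = 0.0075) without both replicates 2.

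**Figure D5:**
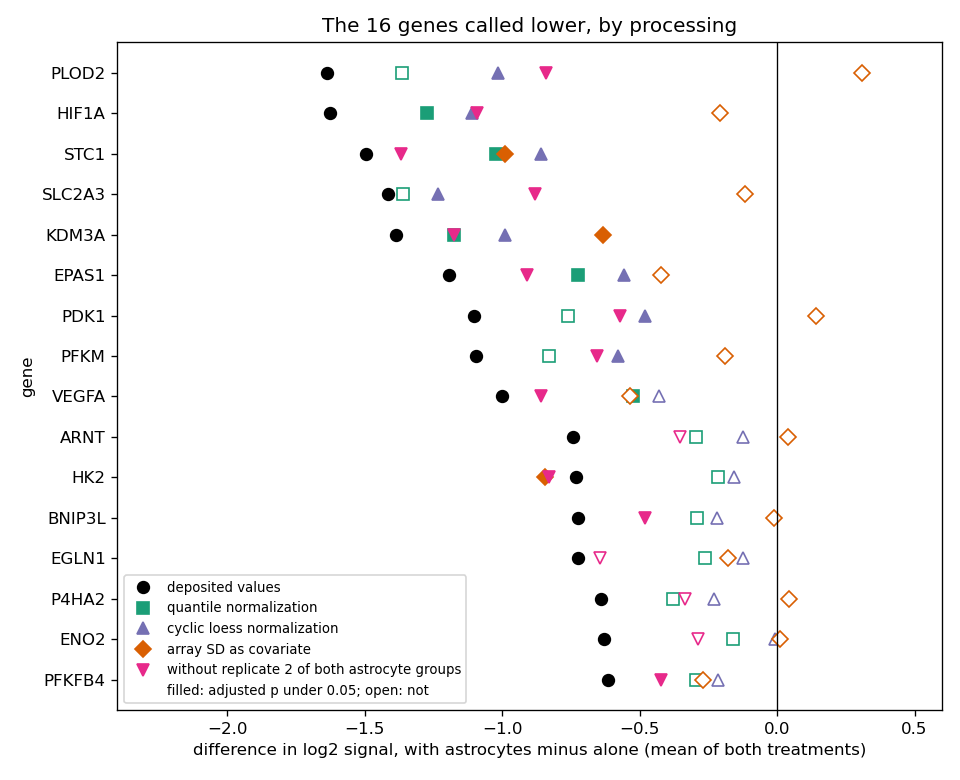
The difference in log2 signal, with astrocytes minus alone, of the 16 genes called lower, from the deposited values and under 4 other settings, filled where the adjusted p was under 0.05. STC1 and KDM3A are filled throughout, and with the array SD as a covariate ARNT, P4HA2, PLOD2, ENO2 and PDK1 lie above 0.

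With estradiol present, 5 of the 38 genes fell with co-culture and 0 rose in limma: STC1 (−1.59, adjusted p = 0.0338), VEGFA (−1.27, adjusted p = 0.0348), KDM3A (−1.53, adjusted p = 0.0371), HK2 (−0.89, adjusted p = 0.0389) and EPAS1 (−1.43, adjusted p = 0.0433). Over all genes 8.15% were called lower, 5.03% higher and 13.2% in either direction. In the 2 higher of the 4 classes by signal, which hold all of the 38 genes, 16% and 11.4% were called lower. The share of the 38 called lower lies between these values, so this count is not a result about the 38 as a set. The median of the 38 genes was −0.70, and the groups did not overlap for 19 of them, all lower, against 23.9% of all genes lower and 27% higher. Shares without overlap were not counted by class of signal, here or in the other comparisons. The 3 arrays without astrocytes that share the treatment served as controls here, and they are part of the 6 used above. The count was 0 without any 1 of the 3 arrays of estradiol alone, without replicate 1 or 2 of vehicle alone or without replicate 3 of estradiol with astrocytes. It was 22 without replicate 1 of estradiol with astrocytes, 2 (STC1 and VEGFA) without its replicate 2 and 3 without replicate 3 of vehicle with astrocytes. Fitted on their own, the 6 arrays of these groups gave 0. With the array SD as a covariate, only HK2 of the 5 kept the call. Without replicate 2 of both astrocyte groups, STC1, VEGFA and HK2 kept it, and KDM3A and EPAS1 did not.

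Under vehicle the same comparison called 0 of the 38 genes in limma, while 8 had an unadjusted p under 0.05, all lower. Over all genes 0.039% were called lower, 0.0167% higher and 0.0557% in either direction. STC1 was at −1.40 (adjusted p = 0.0857), PFKFB4 at −0.82 (adjusted p = 0.0965) and KDM3A at −1.24 (adjusted p = 0.0996). The median of the 38 genes was −0.45, and the groups did not overlap for 14 genes lower and for 1 higher, PFKL, against 18.4% and 23.4% of all genes. Without replicate 2 of estradiol with astrocytes, an array that takes part only through the shared spread, the count was 10, and it was 2 without replicate 1 of either astrocyte group. The 6 arrays on their own gave 4 genes, HIF1A, KDM3A, STC1 and PDK1.

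Whether estradiol changed these genes was asked with and without astrocytes. With astrocytes, 0 of the 38 genes passed in limma and 0 had an unadjusted p under 0.05. Over all genes 0% were called. The median was −0.23, with 33 of 38 genes negative, but without replicate 2 of estradiol with astrocytes the median was 0.22 and 4 genes were negative. The groups overlapped for each of the 38 genes, while 1.36% of all genes lay higher and 0.819% lower without overlap. The range of differences was wide, from −0.84 for PLOD2 to 0.41 for PFKFB4. The median 95% interval reached 0.75 to either side of a difference, so smaller changes were mostly not detectable.

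Without astrocytes, estradiol against vehicle also called 0 of the 38, with 0 at an unadjusted p under 0.05 in limma, against 0% of all genes. Differences ran from −0.15 for ANGPTL4 to 0.24 for ALDOC and GAPDH, with a median of 0.05. ENO2 was the 1 gene whose groups did not overlap, at 7.21, 7.25 and 7.24 in estradiol alone against 7.19, 7.13 and 7.07 in vehicle alone, and over all genes 1.94% lay higher and 1.27% lower without overlap. The VEGFA difference was 0.08 and the HIF1A difference 0.02. The spread within these groups was small, with a median SD over the 38 genes of 0.091 in estradiol alone and 0.17 in vehicle alone, against 0.75 in estradiol with astrocytes and 0.38 in vehicle with astrocytes. The 6 arrays on their own still gave 0.

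The difference between the estradiol effects with and without astrocytes, tested as an interaction, passed for 0 of the 38 genes in limma, with 0 at an unadjusted p under 0.05 and 0% of all genes called. Its median was −0.30, and 0.18 without replicate 2 of estradiol with astrocytes. The 5 calls under estradiol and the 0 under vehicle therefore do not show a larger astrocyte effect under the hormone.

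Of 31 other hypoxia genes, listed from general knowledge, 29 were measured. In the mean of both comparisons 14 fell and 2 rose, with a median of −0.18, while 23% of all genes were called lower (37.5% of those above the median level) and 24.5% higher. The smallest p-values were those of LOX, which encodes a collagen cross-linking enzyme (−2.31, adjusted p = 0.00356), DDIT4, which encodes an inhibitor of mTOR (−1.57, adjusted p = 0.00412), and CA12, a carbonic anhydrase gene (−1.13, adjusted p = 0.00435). VHL, whose product marks HIF for destruction, fell too (−1.09, adjusted p = 0.00450), with the cyclin gene CCNG2 (−0.94, adjusted p = 0.00582), while HIF3A, a HIF family gene, rose (0.93, adjusted p = 0.00838). LOX had 6.57, 4.22 and 5.64 in estradiol with astrocytes and 6.63, 5.10 and 5.86 in vehicle with astrocytes, against 8.20, 7.87 and 8.10 in estradiol alone and 8.21, 8.06 and 7.43 in vehicle alone. No array with astrocytes reached an array without.

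Of 34 other genes of glycolysis, the pentose phosphate branch and pyruvate use, 31 were measured, and 4 fell and 4 rose, with a median of −0.32. Both counts are smaller shares of the list than the 23% of all genes called lower and the 24.5% called higher, so the genes named next are not a result about the list. PKLR, the liver pyruvate kinase (0.94, adjusted p = 0.00988), LDHD, a D-lactate dehydrogenase (0.73, adjusted p = 0.0116), and PGAM2, the muscle phosphoglycerate mutase (0.88, adjusted p = 0.0142), rose. GPD1L (−0.84, adjusted p = 0.0176) fell, as did DLAT (−1.21, adjusted p = 0.0238) and PDHA1 (−0.95, adjusted p = 0.0275), 2 subunit genes of the pyruvate dehydrogenase complex.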

How the data were processed

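RNA levels came from 12 Affymetrix arrays of the Human Gene ST kind, 3 in each of 4 groups that were read from the labels. The deposited values are log2 signals of 33297 probe sets, and RMA and Partek are given in the submitters' processing notes, with neither version nor role. RMA usually gives every array the same distribution, while the deposited arrays differ in their SD. Through the platform's annotation 19181 probe sets had 1 gene symbol, 2055 had several and 12061 had none. For each of 17958 genes the single-symbol probe set with the highest mean over all arrays was used (895 genes had several). A probe set's level says little about another probe set's, so levels were compared only within a gene, apart from the ranking of genes by signal. Precision is limited by how many arrays there are.

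A mean for each group was fitted over all 12 arrays with limma 3.58.1 in R 4.3.3 (lmFit, contrasts.fit, eBayes), as were 6 contrasts: with astrocytes against alone under estradiol, under vehicle and as the mean of both, estradiol against vehicle with astrocytes and alone, and their interaction. All p-values are two-sided, and adjusted ones follow Benjamini-Hochberg across the 17958 genes. A gene was called at an adjusted p under 0.05. The fit was tested on simulated data with independent noise and no array of narrower range. That test does not cover what such arrays do to the results. With 3 arrays against 3, an exact permutation test could not go below 0.1 and was not used.

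The genes, the lists of other pathway genes and markers, and the alternatives on array SD and replicate 2 were chosen with earlier results of these data known. So was the contrast that takes the mean of both astrocyte comparisons. Values on every array are given for each gene past the threshold in any contrast and for those with the smallest p in each class of function, 2 in classes of 4 or more genes and 1 in smaller ones. In the lists of other genes, up to 6 past the threshold with the smallest p are named.

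Replicate numbers come from the titles. Deviations from the group mean of same-numbered arrays correlated at 0.79, 0.76 and 0.21 over genes between both groups with astrocytes, so these were taken as pairs. Arrays with different numbers correlated as well. Replicate 3 of estradiol with astrocytes reached 0.40 with replicate 1 of vehicle with astrocytes. Replicate 2 of estradiol alone reached 0.76 with replicate 3 of vehicle alone. The correlations therefore do not show that same-numbered arrays belong together. For other pairs of groups the correlation was not above 0.1 for every number.

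Alternatives were quantile and cyclic loess normalization, median centring, only genes above the median level, a mean over each gene's probe sets, every probe set on its own, trend and robust options, array weights, the replicate number as a block, only the arrays compared, the array SD as a covariate, a threshold of 0.1, both replicates 2 of the astrocyte groups left out, and each array left out in turn. Figures were drawn with matplotlib 3.10.9.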

Additional observations from a re-analysis of the deposited data

Results flagged for a closer look

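Only TPI1 of the 38 genes had more than 1 single-symbol probe set. Its probe set 7953508, which was not used in the comparisons, gave 7.07 to 7.25 on the 6 arrays with astrocytes and 6.63 to 6.95 on the 6 arrays without, a difference of 0.38 with no overlap. The probe set that was used, 8180371, gave 9.74 to 10.36 with astrocytes and 9.92 to 10.16 without, a difference of 0.06. The remaining probe set, 7902435, had a difference of 0.13. What sets the probe sets of TPI1 apart was not tested.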

How the results depend on the processing

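The counts of the 38 genes called depended on the processing, while the direction did not for 11 of the 16 genes that fell in the mean of both astrocyte comparisons. With the array SD as a covariate the other 5 changed sign and lost the call: ARNT 0.040, P4HA2 0.043, PLOD2 0.31, ENO2 0.012 and PDK1 0.14. That comparison called 16 genes, but 9 (6 lower, 3 higher) after quantile normalization, 29 (26 lower, 3 higher) with array weights, 8 (3 lower, 5 higher) with the array SD as a covariate and 8 to 22 without 1 array each. Under estradiol it was 5, but 0 after quantile normalization or with only the arrays compared, 33 (28 lower, 5 higher) with array weights, 2 with the array SD as a covariate (1 in each direction), 3 without replicate 2 of both astrocyte groups, 12 at a threshold of 0.1 and 0 to 22 without 1 array each. Under vehicle it was 0, but 3 after cyclic loess normalization, 23 with array weights, 4 with only the arrays compared, 3 with the array SD as a covariate (all higher), 1 without replicate 2 of both astrocyte groups, 3 at a threshold of 0.1 and 0 to 10 without 1 array each. The estimation of array weights stopped before it converged. The cause of these changes was not tested. With the replicate block the counts were 12 under estradiol, 3 under vehicle and 19 in the mean of both. The estradiol comparison with astrocytes, whose arrays were taken as pairs, stayed at 0 with the block over 12 or only 6 arrays. Both other estradiol tests stayed at 0 under every alternative. The array signals have no true zero, so a change near background is understated.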

Other observations

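Among the 38 genes, longer genes had more negative differences between arrays with and without astrocytes. Spearman's rho between the difference and the genomic span was −0.50 over the 38 genes and −0.33 over 17933 genes. The median span was 49.1 kb for the 16 genes called lower and 26.0 kb for the other 22. Against the mean signal, rho was 0.22 over the 38 genes and −0.55 over all 17958 genes, and the 16 lay at a median percentile of 82.1 by signal, the other 22 at 95.2. Genes are not independent replicates, and genes on an array share its RNA and its normalization, so these are descriptions.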
